A study of Mus musculus with 10 samples.

Results

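The genes described here encode 9 cytokines and related proteins that keratinocytes are known to make, namely Tslp, Il33, Il1a, Il1b, Il1rn, Il18, Il24, Il7 and Il34. They were chosen by name, as the probe sets that carry a member's symbol and no other, with the probe set of highest mean taken where a gene has several. Each of the 9 had 1 probe set, among 19938 genes with a probe set of a single symbol. Their transcripts were measured in the epidermis of 3-day-old mice on 10 GeneChip Mouse Gene 1.0 ST Arrays, 1 mouse per array, each array giving 1 log2 value per probe set. A probe set on this array pools probes along the exons of a transcript, so the level of 1 gene is not compared with that of another, and every comparison below is of 1 gene between arrays.

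The ILK-deficient group (5 mice) was K14Cre; Ilk f/f, homozygous for the floxed Ilktm1Star allele, and the ILK-expressing group (5 mice) was K14Cre; Ilk f/+, with a single floxed allele. Both groups carried 1 copy of the Tg(KRT14-cre)1Amc/J transgene, in which the keratin 14 promoter drives Cre recombinase in keratinocytes, so Cre was present in the controls too, together with 1 floxed allele. ILK, integrin-linked kinase, is a scaffold protein of integrin adhesions. Other cells of the epidermis, such as melanocytes and Langerhans cells, are not the direct target of this promoter but contributed RNA to the same extracts.

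The Ilk probe set, which also covers exons outside the deleted part, checks the labels only weakly. Its mean was 8.94 ± 0.118 with and 9.17 ± 0.181 without the homozygous deletion (SD, n = 5 each; log2 fold change -0.23, standard error 0.0949, limma adjusted p = 0.253). The keratinocyte markers had about the same summed linear value in both genotypes, 90523 to 97596 in ILK-deficient and 90344 to 100711 in ILK-expressing epidermis. Array medians lay between 7.07 and 7.17 on the log2 scale. The array of ILK-expressing replicate 5 had a median correlation with the other arrays of 0.9744, the lowest, next to 0.9745 for ILK-expressing replicate 4. Replicate 5 had the highest Il1a and Il18 values of all arrays, and values with and without it are given where it decides a sign. The mark that opens a sample's description, whose meaning is not stated, is D for 4 ILK-deficient and 3 ILK-expressing mice. It is D' for ILK-deficient replicate 5 and ILK-expressing replicate 4, and C' for ILK-expressing replicate 5 alone. Below, this mark is called the opening letter, and the D arrays are those marked D without the prime.

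These cytokines are the means by which an epithelium alerts the immune system and its own neighbouring cells. IL-33 and IL-1alpha are held inside the cell and act once released by damage, and are therefore called alarmins, while IL-1beta and IL-18 are made as precursors that inflammatory proteases such as caspase-1 cleave. TSLP is secreted, acts through a receptor built from CRLF2 and IL7R, and is known in skin for barrier defects and allergic inflammation. IL-7 and IL-34 sustain lymphocytes and Langerhans cells, respectively, and the IL-1 receptor antagonist, the product of Il1rn, blocks the receptor that IL-1alpha and IL-1beta share.

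Tslp rose 6.08-fold in ILK-deficient epidermis, and no other member passed the test in either direction. Probe sets entered the test with a linear value from 50 up (log2 5.64) on 5 arrays or more, and were called at an adjusted p under 0.05 over all 32046 probe sets tested. All 9 members were at 50 or more on all 10 arrays, so none was lost to this filter. By limma with Benjamini-Hochberg adjustment, 1 of 9 was higher, against 2.81% of all probe sets tested, and 0 of 9 were lower, against 0.97% of all. Since the members were chosen with earlier results of these data known, these shares are a description only. Without the adjustment, at p under 0.05, 1 member was higher and 2 were lower, the latter being Il33 and Il1rn. Of all 32046 probe sets tested, 5091 passed that rule in either direction, and 1810, or 5.65% of all, were lower. The methods' analysis of variance, adjusted in the same manner, called 1 member, again Tslp. Only Tslp had no overlap between the genotypes and was higher in ILK-deficient epidermis, against 4.37% of all probe sets. The median log2 fold change was -0.19 over the 9 members and 0.003 over all probe sets tested.

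**Figure D1:**
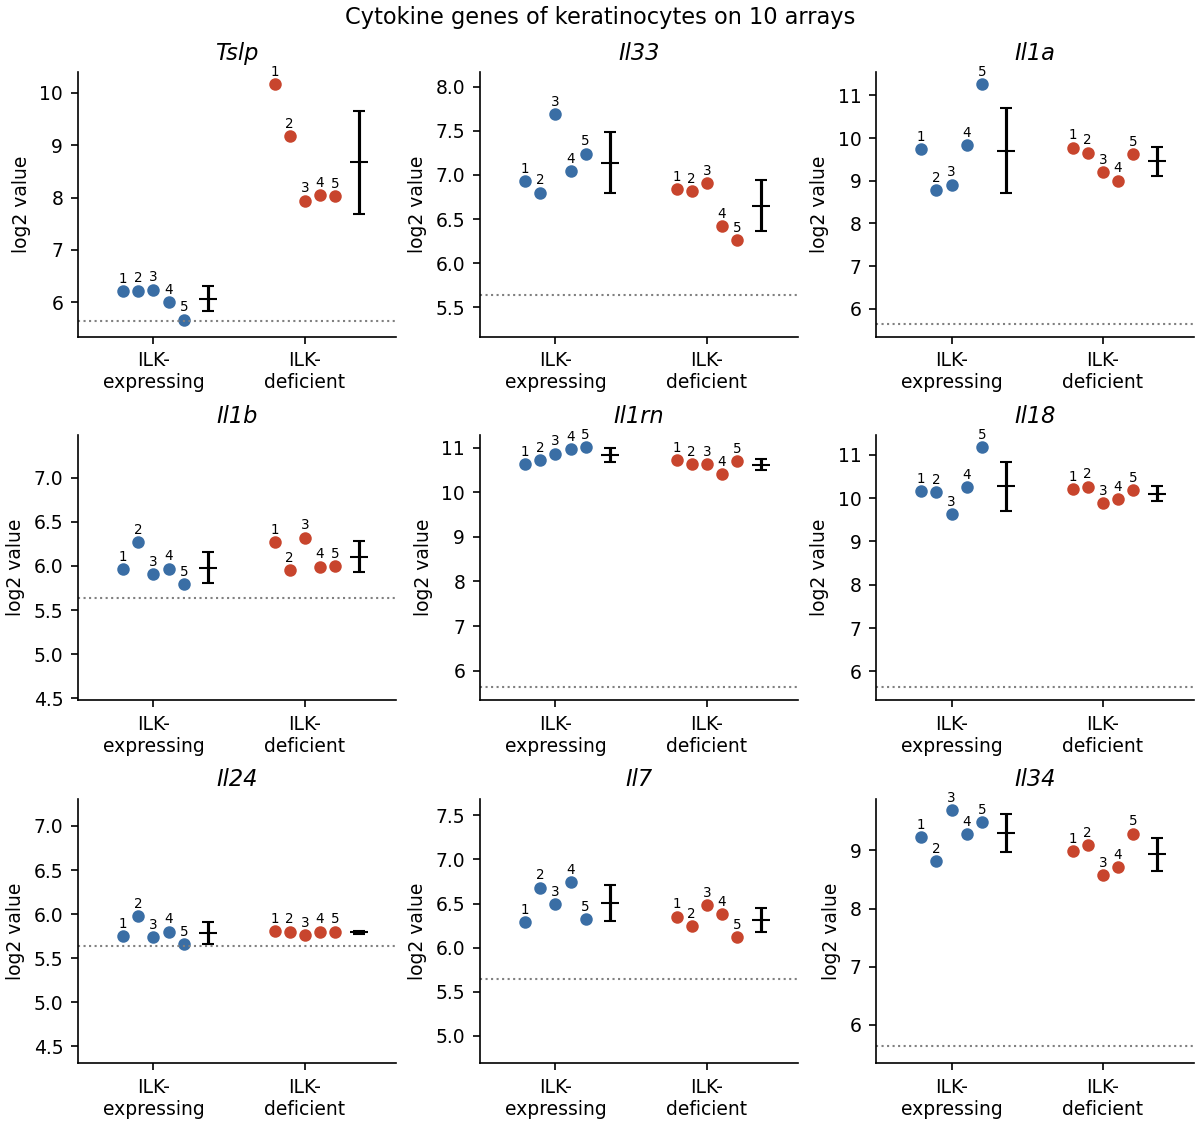
Log2 value of each of the 9 genes on each array, 5 ILK-expressing arrays in blue and 5 ILK-deficient arrays in red, each point numbered by its replicate; the bar is the mean with 1 SD, the dotted line is the filter at log2 5.64, and each panel has its own axis. The ILK-deficient values of Tslp, 7.94 to 10.17, all lie above the ILK-expressing values, 5.67 to 6.24, while the genotypes overlap in every other panel.

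Tslp encodes thymic stromal lymphopoietin, which acts on dendritic cells, T cells and basophils. In ILK-deficient epidermis its log2 values were 10.17, 9.18, 7.94, 8.05 and 8.03 for replicates 1 to 5. In ILK-expressing epidermis they were 6.21, 6.22, 6.24, 6.00 and 5.67, close to the filter at 5.64. Every ILK-deficient array thus lay above every ILK-expressing array, and replicates 1 and 2 stood above the other 3 ILK-deficient arrays, which lay at 7.94 to 8.05. The means were 8.67 ± 0.979 and 6.07 ± 0.242 (SD, n = 5 each), which made a log2 fold change of 2.60 (standard error 0.395, 95% interval 1.73 to 3.48, limma adjusted p = 0.00742). Over the 126 ways to divide the arrays, an exact permutation test gave a two-sided p of 0.00794, the smallest that 5 against 5 arrays allow. By size of rise, Tslp was number 2 of the 32046 probe sets tested. With any 1 array left out, the log2 fold change was 2.23 to 2.79 and the adjusted p 0.00625 to 0.0232. Among the D arrays, 4 against 3, it was 2.61, with an adjusted p of 0.0652 that no longer passed.

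In bulk tissue, fewer cells of a type and less RNA per cell cannot be told apart, and neither can more cells and more RNA per cell. Markers of some other cells also differed by genotype on these arrays. Of 7 melanocyte markers, 5 were higher and 0 lower in ILK-deficient epidermis, with a summed linear value of 7140 to 13397 against 1980 to 4910, and no marker on that list was below 50 on most arrays. Of 10 macrophage and monocyte markers 2 were higher, Adgre1 (log2 fold change 0.50, limma adjusted p = 0.0107) and Lyz2 (0.45, limma adjusted p = 0.0375), with sums of 1333 to 1753 against 1035 to 1455. Of 5 T cell markers tested 1 was higher, Thy1, while the sums overlapped widely, 1028 to 1841 against 847 to 1769. Over all probe sets tested, 2.81% were higher and 0.97% lower. The methods' analysis of variance, adjusted in the same manner, called 1 melanocyte marker (Sox10), 1 macrophage and monocyte marker (Adgre1) and 0 T cell markers. Langerhans cell markers (8 tested), fibroblast markers (7), endothelial markers (7), adipocyte markers (5), mast cell and basophil markers (8) and neutrophil and eosinophil markers (8) had 0 called in either direction, and the sums of each overlapped between the genotypes. Many mast cell and basophil, neutrophil and eosinophil, and endothelial markers were near the filter. Their means in ILK-deficient epidermis were log2 5.63 (Mcpt8) to 6.65 (Ms4a2), 5.68 (Elane) to 6.57 (Camp) and 5.73 (Tek) to 6.41 (Emcn). Some adipocyte and fibroblast markers were near it too, such as Lep (5.71), Adipoq (5.79) and Lum (5.96) in ILK-deficient epidermis. Tpsab1, Mrgprb1, Epx, Csf3r and Tie1 were below 50 on most arrays and were not tested. For markers at this level the lack of a call says little. Of 10 keratinocyte markers, Trp63 was higher, at 0.35, and Krt14 lower, at -0.23. The part of these cells in the higher Tslp value was not tested.

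The 3 genes whose values followed Tslp most closely over the 10 arrays were Cdc40 (Pearson r = 0.963), a splicing factor, Ms4a6c (r = 0.961), a membrane protein of myeloid cells, and Tmem178b (r = 0.952). These correlations are a description, since much of each is the genotype itself and the points share arrays. Once each value was taken as a deviation from its genotype mean, r was 0.867 for Cdc40, 0.78 for Ms4a6c and 0.734 for Tmem178b. All 3 genes shared with Tslp the high value of ILK-deficient replicate 1. Cdc40 was 10.40 and 10.39 in replicates 1 and 2 and 10.24, 10.26 and 10.26 in the other ILK-deficient replicates, the same order of high and low arrays as Tslp on a far smaller scale. Its log2 fold change of 0.17 was not called (adjusted p = 0.127), whereas Ms4a6c rose by 0.72 (limma adjusted p = 0.00304) and Tmem178b rose by 0.65 (limma adjusted p = 0.00693).

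Il33, the nuclear alarmin that acts through IL1RL1 and IL1RAP, had the lowest fold change of the 9 members. Its log2 values were 6.84, 6.82, 6.91, 6.42 and 6.26 in ILK-deficient and 6.93, 6.80, 7.69, 7.04 and 7.24 in ILK-expressing epidermis. Of the ILK-expressing arrays only replicate 2 fell within the ILK-deficient range, replicate 1 lay just above it, and ILK-expressing replicate 3 was the highest of all. The means of 6.65 ± 0.291 and 7.14 ± 0.347 (SD, n = 5 each) gave a log2 fold change of -0.49 (standard error 0.182, 95% interval -0.90 to -0.09). The exact permutation test gave p = 0.0397, two-sided, but the limma p of 0.0206 became 0.193 after adjustment over all probe sets, so Il33 was not called. Leaving out any 1 array moved the fold change between -0.58 and -0.36 and never gave a call.

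The IL-1 genes were not called in either direction. Il1a, which encodes IL-1alpha, was measured at 9.77, 9.66, 9.20, 9.00 and 9.62 in ILK-deficient and at 9.74, 8.78, 8.91, 9.83 and 11.26 in ILK-expressing epidermis. The value of ILK-expressing replicate 5 was the highest of the 10, and the other 9 arrays lay within 8.78 to 9.83, with the genotypes mixed. The means were 9.45 ± 0.331 and 9.70 ± 0.993 (SD, n = 5 each), and the log2 fold change was -0.26 (standard error 0.41, 95% interval -1.16 to 0.65, limma adjusted p = 0.882). Without ILK-expressing replicate 5 it turned to 0.14 (limma adjusted p = 0.851). An interval this wide leaves room for a change of more than 1.5-fold in either direction.

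Il1b, which encodes IL-1beta, was near the filter on every array, at 6.27, 5.95, 6.32, 5.99 and 6.00 in ILK-deficient and 5.96, 6.27, 5.91, 5.97 and 5.79 in ILK-expressing epidermis. The genotypes overlapped, with 2 high arrays among the ILK-deficient and 1 among the ILK-expressing. The log2 fold change was 0.13 (standard error 0.106, 95% interval -0.11 to 0.36, limma adjusted p = 0.681). Il1rn, the antagonist, was measured at 10.72, 10.64, 10.64, 10.41 and 10.70 in ILK-deficient and at 10.63, 10.72, 10.87, 10.97 and 11.01 in ILK-expressing epidermis. The higher 3 ILK-expressing arrays lay above all ILK-deficient ones and the other two among them. With means of 10.62 ± 0.124 and 10.84 ± 0.164 (SD, n = 5 each), the log2 fold change of -0.22 (standard error 0.0912, 95% interval -0.42 to -0.01) had an unadjusted p of 0.038 by limma and an adjusted p of 0.27, and the exact permutation test gave p = 0.0714.

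Il18, whose product is cleaved by caspase-1 and acts on lymphocytes, had log2 values of 10.21, 10.26, 9.88, 9.97 and 10.19 in ILK-deficient and 10.16, 10.14, 9.63, 10.25 and 11.17 in ILK-expressing epidermis. As for Il1a, ILK-expressing replicate 5 stood above all the other arrays. The means were 10.10 ± 0.166 and 10.27 ± 0.561 (SD, n = 5 each), and the log2 fold change was -0.17 (standard error 0.232, 95% interval -0.68 to 0.34, limma adjusted p = 0.852). Without ILK-expressing replicate 5 it was 0.06 (limma adjusted p = 0.889).

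Il1a and Il18 varied together between arrays of 1 genotype more closely than any other pair of members. The correlation of their deviations from the genotype means was 0.911 over 10 arrays, and 0.688 over the 9 arrays left without ILK-expressing replicate 5, so a good part of it came from that array. The largest correlation below 0 was between Il1b and Il34, at -0.704, or -0.685 without that array. These are descriptions over few arrays that share their normalization, and they carry no test. With Tslp, the deviations of the other 8 members had correlations of -0.0263 to 0.307, or -0.067 to 0.357 without ILK-expressing replicate 5. Leaving out that array moved Il1a from 0.00913 to 0.357 and Il18 from -0.0263 to 0.329.

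**Figure D2:**
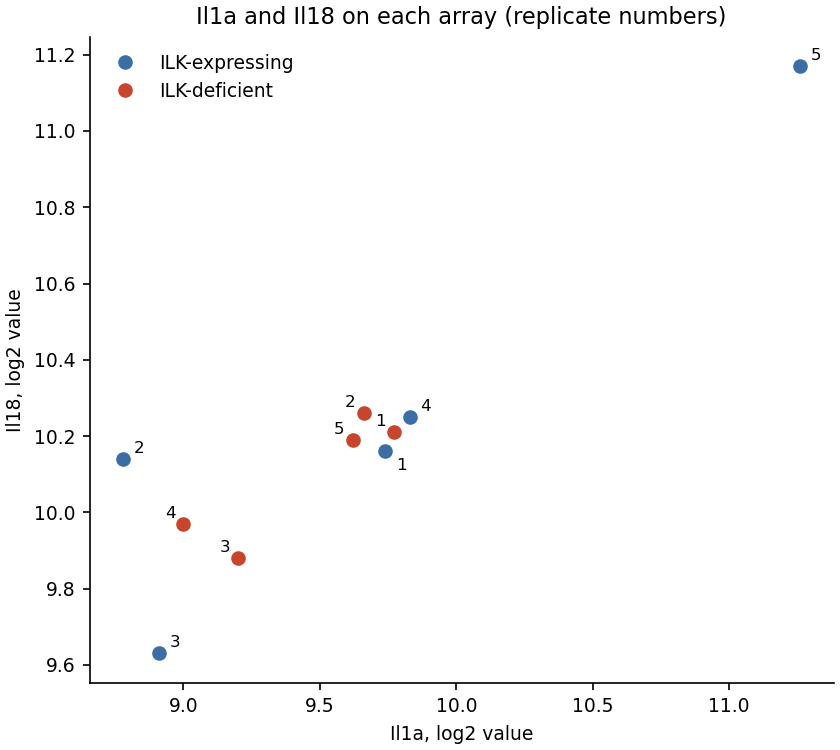
Log2 value of Il18 against that of Il1a on the 10 arrays, ILK-expressing in blue and ILK-deficient in red, with replicate numbers. ILK-expressing replicate 5 lies apart at 11.26 and 11.17, the other 9 arrays lie between 8.78 and 9.83 for Il1a, and the genotypes are mixed among them.

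The promoters of Il1a and Il18 are shown because these genes moved together, and that of Il1b because it is the next protein-coding gene to Il1a, with 0 others between them, and did not follow it (correlation of deviations -0.487, or -0.269 without ILK-expressing replicate 5). The sequences are from RefSeq, build GRCm38.p6, and run from 250 bases before to 50 bases after the start site, 5′ to 3′ on the strand of the gene. Capitals mark the motifs found, on either strand. The TATA box was searched for as TATAAA. The AP-1 motif was searched for as TGANTCA, in which N is any base. The letters CACGTG stood for the E-box. The NF-kappaB motif was GGGA, any 4 bases and then CC. Il1a lies at chr2:129309923-129310222 on the minus strand, Il1b at chr2:129371090-129371389 on the minus strand, and Il18 at chr9:50554450-50554749 on the plus strand.
Il1a: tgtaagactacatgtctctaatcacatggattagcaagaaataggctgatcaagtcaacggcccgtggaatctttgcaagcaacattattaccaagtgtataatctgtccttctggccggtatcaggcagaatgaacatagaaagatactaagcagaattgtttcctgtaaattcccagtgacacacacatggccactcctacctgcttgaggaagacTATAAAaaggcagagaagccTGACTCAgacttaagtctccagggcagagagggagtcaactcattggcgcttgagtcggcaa
Il1b: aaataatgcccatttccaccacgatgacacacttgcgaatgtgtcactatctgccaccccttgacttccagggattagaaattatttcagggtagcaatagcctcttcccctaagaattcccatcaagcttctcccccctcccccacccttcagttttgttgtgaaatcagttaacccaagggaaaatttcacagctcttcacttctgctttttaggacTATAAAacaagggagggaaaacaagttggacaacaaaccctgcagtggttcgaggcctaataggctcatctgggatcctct
Il18: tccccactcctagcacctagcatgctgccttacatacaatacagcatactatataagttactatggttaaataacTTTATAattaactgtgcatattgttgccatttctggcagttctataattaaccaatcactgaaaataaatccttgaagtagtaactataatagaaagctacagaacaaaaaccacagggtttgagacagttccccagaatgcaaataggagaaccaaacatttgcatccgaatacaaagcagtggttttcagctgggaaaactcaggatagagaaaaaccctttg
Il1a has a TATA box with its first base at -32 from the start site and an AP-1 motif at -12, and Il1b has a TATA box at -31. In Il18 the only match was a TATA box on the opposite strand, at -175. No match overlapped another. Among 32851 promoters of the same length, 13.6% held TATAAA, 7.81% the AP-1 motif, 7.15% the E-box and 20.7% the NF-kappaB motif. These matches are letters in a window and not known sites, and Il1a and Il18 shared no motif at a similar place. Of the 9 members, the promoters of 5 were searched here, and those of Tslp, Il7, Il24 and Il34 were not.

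The remaining 3 cytokines also showed no called difference. Il24, an IL-20 family cytokine that acts on keratinocytes, was close to the filter on every array, at 5.81, 5.80, 5.76, 5.80 and 5.80 in ILK-deficient and 5.75, 5.98, 5.74, 5.80 and 5.66 in ILK-expressing epidermis. The ILK-deficient arrays, 5.76 to 5.81, lay inside the wider ILK-expressing range of 5.66 to 5.98, and the log2 fold change was 0.01 (standard error 0.065, 95% interval -0.14 to 0.15, limma adjusted p = 0.987). Values this close to the filter leave little room for a fall to be seen.

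Il7 was measured at 6.35, 6.24, 6.48, 6.38 and 6.12 in ILK-deficient and at 6.29, 6.68, 6.49, 6.74 and 6.32 in ILK-expressing epidermis. ILK-expressing replicates 2, 3 and 4 lay above every ILK-deficient array and the other 2 among them, and the log2 fold change was -0.19 (standard error 0.106, 95% interval -0.43 to 0.04, limma adjusted p = 0.446). Il34, the second ligand of the CSF1 receptor, was measured at 8.99, 9.09, 8.58, 8.71 and 9.29 in ILK-deficient and at 9.23, 8.82, 9.69, 9.28 and 9.49 in ILK-expressing epidermis. ILK-expressing replicates 3 and 5 lay above all ILK-deficient arrays, and the rest overlapped. The log2 fold change of Il34 was -0.37 (standard error 0.174, 95% interval -0.75 to 0.02, limma adjusted p = 0.342), and the Langerhans cell markers, cells that depend on this cytokine, had sums of 6196 to 8098 in ILK-deficient and 5902 to 10403 in ILK-expressing epidermis (exact permutation test, p = 0.262).

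**Figure D3:**
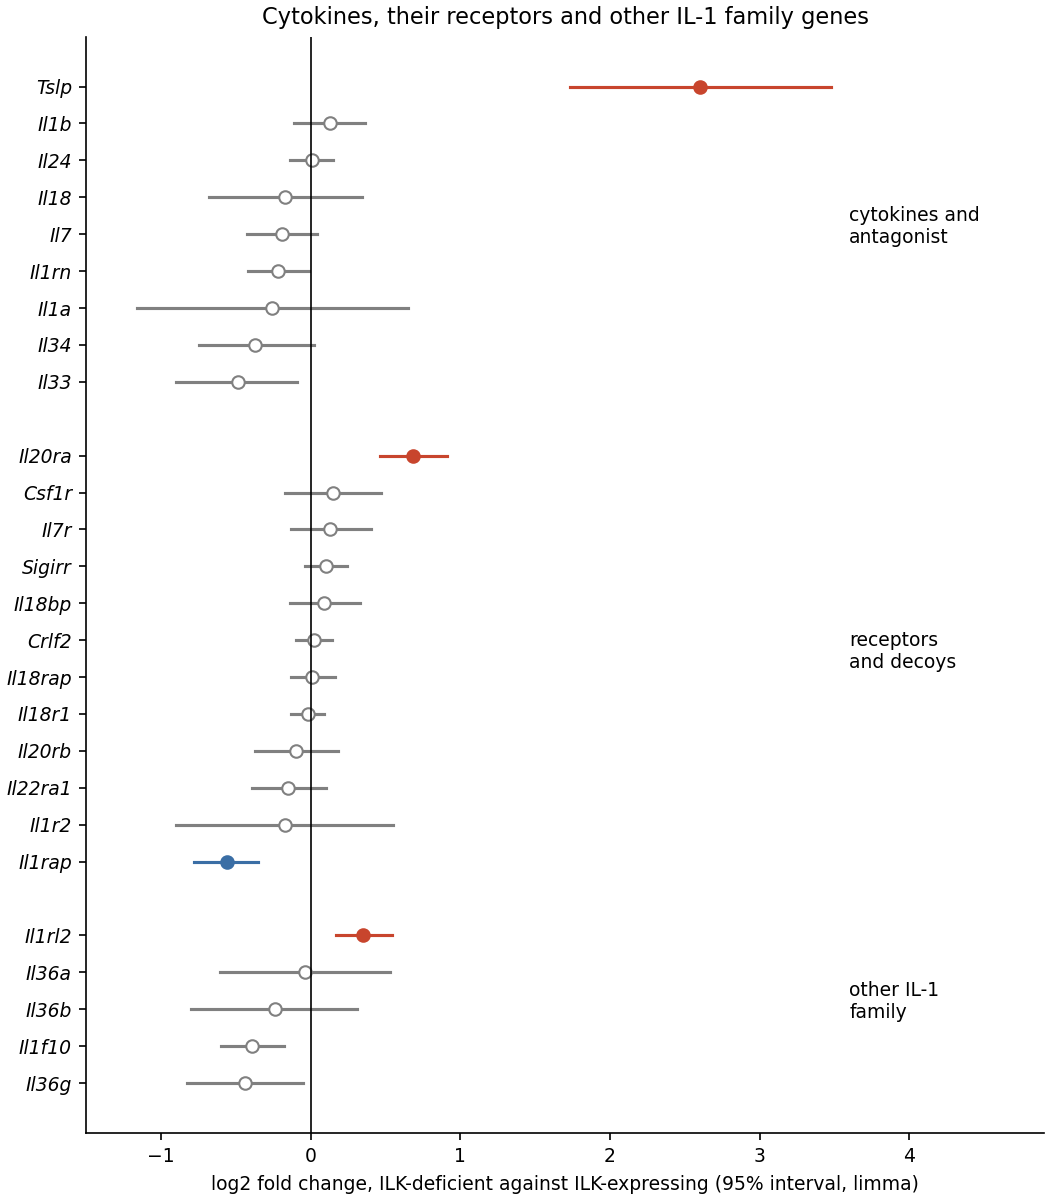
Log2 fold change, ILK-deficient against ILK-expressing (5 arrays each), with its 95% interval from limma, for the 9 genes, their receptors and decoys, and other IL-1 family genes; filled points passed the test, red higher and blue lower. Tslp lies at 2.60, Il20ra at 0.68, Il1rl2 at 0.35 and Il1rap at -0.56, and every other point is open.

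Of 12 receptor and decoy genes tested, 1 was higher and 1 lower, and the median log2 fold change was 0.01. Il1rap, the accessory chain shared by the receptors of IL-1, IL-33 and the IL-36 cytokines, fell in ILK-deficient epidermis. Its log2 values were 8.68, 8.79, 8.92, 8.60 and 8.86 against 9.18, 9.17, 9.43, 9.30 and 9.59 in ILK-expressing epidermis. There was no overlap, and the log2 fold change was -0.56 (standard error 0.0963, limma adjusted p = 0.0124). Il20ra, which pairs with IL20RB to bind IL-24 and its relatives, rose, with values of 6.94, 6.70, 6.75, 6.44 and 6.90 against 5.98, 6.22, 5.93, 6.16 and 6.01. Again the genotypes did not overlap, and the log2 fold change was 0.68 (standard error 0.101, limma adjusted p = 0.00693). Both calls were lost among the D arrays alone, with adjusted p values of 0.0881 for Il1rap and 0.0758 for Il20ra, and held when any 1 array was left out.

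The other receptor chains did not pass. Named by the rule were Il22ra1 (log2 fold change -0.15, limma adjusted p = 0.644) and Il20rb (-0.10, limma adjusted p = 0.839), the chains that bind IL-20 family cytokines. Named for the members they bind, after their values had been seen, the TSLP receptor chains Crlf2 and Il7r were at 0.02 and 0.13 (adjusted p = 0.953 and 0.711), the IL-34 receptor Csf1r at 0.15 (0.744), the IL-1 decoy Il1r2 at -0.17 (0.906) and the IL-18 binding protein Il18bp at 0.09 (0.813). The 95% interval of Crlf2 ran from -0.10 to 0.14. Thus a rise of Tslp was measured beside TSLP receptor chains with no called difference. Il1r1, Il1rl1 and Il2rg were not analysed here.

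Among 5 other genes of the IL-1 family, 1 was higher and 0 were lower, with a median of -0.24. Il1rl2, the receptor of the IL-36 cytokines, rose slightly, at 11.44, 11.39, 11.28, 11.16 and 11.48 in ILK-deficient and 10.97, 10.79, 11.17, 11.00 and 11.05 in ILK-expressing epidermis. The genotypes met at 11.16 and 11.17, and the log2 fold change of 0.35 (standard error 0.0845, limma adjusted p = 0.0467) was lost in 13 of 21 other settings. Its ligands Il36g and Il36b were at -0.44 (limma adjusted p = 0.24) and -0.24 (0.773). Il1f10, the neighbour of Il1rn, was named after its values had been seen: it was lower without overlap, 5.64 to 5.72 against 5.90 to 6.44, but at -0.39 was not called (limma adjusted p = 0.051), and all its ILK-deficient values were close to the filter.

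Of 15 genes whose products mature or release these cytokines, 1 was higher and 0 were lower, with a median of 0.00. Capn2, a calpain subunit of the protease type that cleaves the IL-1alpha precursor, rose by 0.68 (standard error 0.0955, limma adjusted p = 0.00537) and kept its call in all 21 other settings. Its values were 10.02, 10.06, 9.87, 9.63 and 9.75 in ILK-deficient and 9.27, 9.02, 9.17, 9.11 and 9.32 in ILK-expressing epidermis, with no overlap. The related Capn1 was at -0.11 (limma adjusted p = 0.482) and Gsdma, which encodes an epidermal gasdermin, at -0.39 (0.138). Casp1, which encodes the protease that cleaves the IL-1beta and IL-18 precursors, was named after its value had been seen, at -0.40 (0.332). Named likewise, Cma1, Nlrp3, Casp4 and Gsdmd had ILK-deficient means near the filter, at 5.65, 5.83, 5.93 and 5.94. Ctsg was below the filter. For genes at this level the lack of a call says little.

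Of 20 genes of IL-1 receptor signalling, 1 was higher and 0 were lower, with a median of 0.05. Tnfaip3, which encodes the NF-kappaB inhibitor A20 and is itself an NF-kappaB target, rose by 0.99 (standard error 0.188, limma adjusted p = 0.0185), at 7.68, 7.75, 8.66, 7.69 and 8.26 in ILK-deficient and 7.18, 7.12, 7.12, 6.81 and 6.85 in ILK-expressing epidermis. The genotypes did not overlap, and ILK-deficient replicates 3 and 5 stood highest. The call was lost without ILK-deficient replicate 5 (limma adjusted p = 0.0529), by the methods' analysis of variance (0.0574), with the opening letter of the description as a block (0.0534) and in the D arrays alone (0.204, at a log2 fold change of 0.81). Among the genes not called, Tab2 was at -0.02 (limma adjusted p = 0.95), and Nfkbib at -0.04 (0.909). Nfkbia, another inhibitor induced by NF-kappaB, was named after its value had been seen and at 0.89 did not pass (0.0939).

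Of 11 genes of JAK and STAT signalling, through which TSLP, IL-7 and IL-24 act, 1 was higher and 0 were lower, with a median of 0.15. Jak2, a kinase of the TSLP receptor, rose by 0.43 (standard error 0.0786, limma adjusted p = 0.0167), from 8.86 to 9.16 in ILK-expressing to 9.24 to 9.54 in ILK-deficient epidermis, without overlap. Its call was lost with the replicate number as a block (limma adjusted p = 0.0542) and in the D arrays (0.178). Stat3 was at 0.19 (limma adjusted p = 0.303) and Jak1 at 0.13 (0.597). Of 13 other cytokines of keratinocytes that passed the filter, out of 19 with a probe set, 1 was higher and 0 were lower, with a median of 0.03. This was Il23a, the p19 subunit of IL-23, at 7.40, 7.38, 7.60, 7.65 and 7.16 in ILK-deficient and 7.03, 6.91, 7.04, 6.94 and 6.85 in ILK-expressing epidermis. The difference between the genotypes was 0.48 on the log2 scale (standard error 0.0928, limma adjusted p = 0.0197), and its call was lost without ILK-expressing replicate 4 (limma adjusted p = 0.0503) and in the D arrays (0.0602). Il15 and Csf1 were at -0.03 and 0.19 and did not pass. Il6, Csf2, Csf3, Il19, Lif and Osm were below the filter. Others were near it, such as Il10 and Il12a, both with an ILK-deficient mean of 5.73.

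Genes known to regulate Tslp in skin, 18 tested, had 0 higher and 1 lower, with a median of 0.05. Spink5, which encodes the inhibitor LEKTI of the kallikrein proteases, fell by 0.41 on the log2 scale (limma adjusted p = 0.0308), from 12.12 to 12.53 in ILK-expressing to 11.80 to 12.12 in ILK-deficient epidermis. This call was lost in 12 of 21 other settings. For Spink5 the genotypes met at 12.12. Of the kallikreins on the list, Klk5 at -0.39 (limma adjusted p = 0.0559) and Klk7 at -0.31 (0.109) were lower without overlap and were not called. The share of all probe sets that were lower without overlap, as were these, Il1rap and Il1f10, is not given here. Klk14, named after its value had been seen, was at 0.04 (0.961), with the genotypes overlapping.

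Counts for genes known to respond to the cytokines stand beside shares of 2.81% higher and 0.97% lower over all probe sets tested. Of 15 genes of the type 2 response, which follows TSLP and IL-33, 0 were higher and 0 lower by limma at an adjusted p under 0.05. Before adjustment (p under 0.05), 1 was higher and 0 lower, where 5091 of 32046 probe sets passed in either direction and 5.65% were lower. The methods' analysis of variance called 0 of the 15. The median was 0.01, and of these genes Postn was at -0.06 (limma adjusted p = 0.832) and Il13ra1 at 0.28 (0.107), neither of them called. Many of the others were near the filter at log2 5.64. Ccl17 had means of 5.64 in ILK-deficient and 5.62 in ILK-expressing epidermis, and Chil3 of 5.76 and 5.85. Il5 and Ccl8 were below the filter. For genes at this level the lack of a call says little. Of 20 effector genes induced by IL-1, 1 was higher and 0 were lower, with a median of 0.01. This was Ptgs2, the inducible cyclooxygenase, at 8.64, 8.30, 8.83, 7.99 and 8.81 in ILK-deficient and 7.95, 7.52, 7.82, 7.22 and 7.91 in ILK-expressing epidermis. The difference of 0.83 on the log2 scale (standard error 0.191, limma adjusted p = 0.0404) lost its call in 12 of 21 other settings. Krt6b and Krt6a, keratins of activated keratinocytes, were at 1.36 (limma adjusted p = 0.112) and 0.38 (0.82) and did not pass. Several effectors were near the filter too. Named after their values had been seen, Mmp3, Nos2, S100a8 and Lcn2 had ILK-deficient means of 5.71, 5.72, 5.77 and 5.91. Cxcl5 and Mmp9 were below the filter. For these the lack of a call again says little.

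Over the 9 lists of receptors, processing enzymes, signalling and target genes together, 7 of 129 genes tested were higher, or 5.43%, and 2 were lower, or 1.55%. Over all probe sets tested the shares were 2.81% and 0.97%, but these include probe sets without a gene symbol. With 1 mean value per gene, 1220 of 18121 genes over the series were higher and 473 lower, and 13 list genes were called. An excess of list genes was not tested. The 9 calls of the fit by probe set were spread over 8 lists, and no list had more than 1 gene in either direction.

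**Figure D4:**
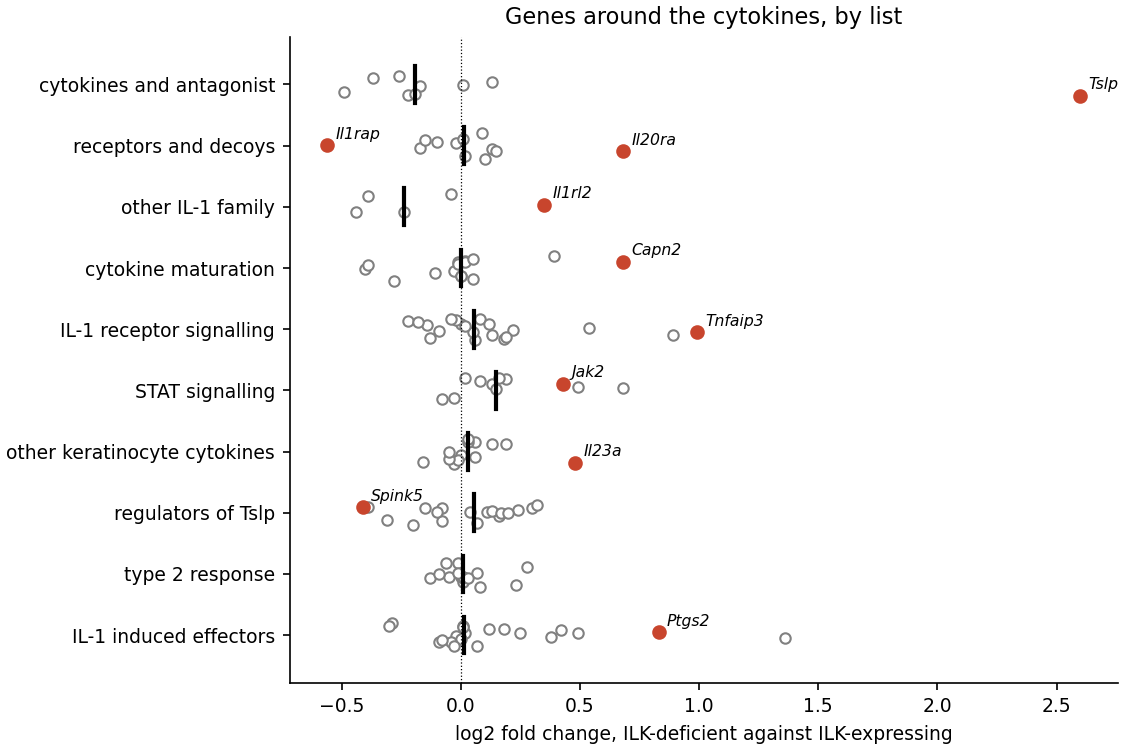
Log2 fold change of each gene tested, ILK-deficient against ILK-expressing, by list; filled red points passed the test in either direction and are named, open points did not, and the black bar is the median of the list. The medians lie between -0.24 and 0.15, Tslp lies apart at 2.60, and no list has more than 2 filled points.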

How the data were processed

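RNA was taken from dispase-separated epidermis of mice aged 3 days, littermates per the series description. The authors deposited 1 log2 value per probe set and array, after adjusting background, normalizing quantiles and summarising the probes. RMA and Partek stand in the labels, GC-RMA and RMA in the methods, and neither says which produced the deposited table. No further scaling was applied to the deposited log2 values. Genotypes were taken from the labels. Of the probe sets, 21789 had 1 symbol in the platform annotation, 1621 several and 12146 none. Probe sets that reached a linear 50 on 5 or more arrays (32046, with 3510 left out) were compared by limma 3.58.1 under R 4.3.3 (linear fit with empirical Bayes, no covariate), with Benjamini-Hochberg adjustment over all of them. An exact permutation test, two-sided, was run over the 126 splits of the arrays. The precision is limited by 5 mice per genotype. The p values judge the difference between genotypes against the spread between arrays, 1 mouse each, with no term for litter.

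The members and gene lists were chosen with earlier results of these data known. Named are all 9 members, Ilk, the 3 genes most like Tslp and, of each list, up to 4 called genes and the 2 with the highest mean value among those not called, which only picks names; others are said to be chosen after their values were seen. In 21 alternatives, another filter, scaling, test, block, weighting or set of arrays was used. Several genes of the lists have no probe set with a single symbol and were not analysed here. Exon values were not analysed here.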

Additional observations from a re-analysis of the deposited data

Results flagged for a closer look

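Among the 9 members and the 9 called genes of the lists, 36 groups of 5 arrays were examined for a single array apart from the rest, where the gap to the nearest array divided by the range exceeded 0.71. Chance flags about 1 in 20 such groups, and 2 were found. Il1rn in ILK-deficient replicate 4 was 10.41, while the other 4 arrays were at 10.64 to 10.72. Il24 in ILK-deficient replicate 3 was 5.76, while the others were at 5.80 to 5.81, a gap that is small beside the ILK-expressing SD of 0.121.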

How the results depend on the processing

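Il1b and Il24 were near the filter on every array. Tslp kept its direction in all 21 alternatives and its call in 20. Among the D arrays, fewer samples gave 0 called members, a log2 fold change of 2.61 for Tslp with an adjusted p of 0.0652, 1 called list gene in place of 9, and 294 calls over the series in place of 1211. The methods' analysis of variance called 5 list genes and 686 probe sets. Leaving out 1 array gave 5 to 8 called list genes, 5 without ILK-expressing replicate 4 or ILK-deficient replicate 5, and 597 to 1010 probe sets. Uncalled members changed sign as follows, and the cause was not tested. Il1a went to 0.16 with the opening letter as a block, to 0.26 in the D arrays and to -0.49 to 0.14 with 1 array left out, and Il18 to 0.07, 0.10 and -0.33 to 0.06. For both genes, every value above 0 came from a setting in which ILK-expressing replicate 5 carried no weight. It was left out or, as the only C' array, was fitted alone by the block. Il24 went to -0.02 with median centring, -0.03 with the letter as a block, -0.03 in the D arrays and -0.03 to 0.06 with 1 array left out. Il33, Il1b, Il1rn, Il7 and Il34 kept their direction and stayed uncalled in all 21.

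Over all probe sets tested, the shared replicate numbers showed no evident pairing of the mice, and the labels name no litter. Deviations of same-numbered arrays correlated at -0.296 to 0.113, and 0 of 10 arrays correlated best with their own number. With the replicate number as a block, Tslp was at 2.60 (adjusted p = 0.0213), 1 member and 9 list genes were called, of which 6 were shared with the fit without it (Il1rl2, Jak2 and Spink5 were lost, Nfkbia, Nfkbiz and Socs3 gained), and 608 probe sets in place of 1211. Mean values per gene gave 1693 calls over 18121 tests, and median centring 848.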
